A study of Mus musculus with 28 samples.

Results

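The promoters of 20807 autosomal protein-coding genes were sorted, within D1 nuclei alone, by whether they carried H3K4me3, H3K27me3, both marks or neither. These genes were taken from 55450 annotated genes, of which 21951 are protein-coding, and a promoter counted as marked when a deposited H3K4me3 peak or H3K27me3 island overlapped the window from 2 kb upstream to 1 kb downstream of the TSS by at least 1 bp. Both marks were present at 1204 genes (5.79% of those sorted), here called bivalent. H3K4me3 alone was present at 10616 genes (51.0%), H3K27me3 alone at 2083 (10.0%) and neither mark at 6904 (33.2%). Bivalent promoters had narrower and weaker H3K4me3 peaks than promoters with H3K4me3 only. Their H3K27me3 islands were in the median a little wider and denser in reads than those of promoters with H3K27me3 only. At promoters rich in CpG dinucleotides, however, the bivalent islands were the narrower and less dense ones. All Hox, Pax and Gata promoters were marked by H3K27me3 islands, as were those of 13 of 16 striatal interneuron markers. Ribosomal, proteasome and respiratory chain genes mostly had H3K4me3 only, olfactory and vomeronasal receptors mostly had neither mark, and 8 of 9 direct and 5 of 7 indirect pathway markers were bivalent, against none of the 14 markers that both classes of projection neuron share.

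D1 nuclei are the nuclei of the direct pathway medium spiny neurons (MSNs) of the striatum, isolated by INTACT, an affinity purification of nuclei tagged with sfGFP-SUN1, and profiled by CnR (CUT&RUN), in which an antibody directs a nuclease to chromatin carrying one histone mark. The mice were male and female Sun1-sfGFP;Drd1-cre animals of about 8 weeks on a C57BL/6J background, and no drug treatment is named for them. The tag marks every striatal cell in which Cre driven by *Drd1* had acted. Of the 28 samples of the series, 4 stand behind the lists used here, namely 2 replicates with the Abcam antibody against H3K4me3 and 2 with the Active Motif antibody against H3K27me3, and the authors pooled the replicates of each mark into a single list. For both H3K27me3 samples the source name reads A2a while the title and the cell type read D1, and they were taken as D1.

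H3K4me3 is deposited around the start sites of active and poised genes, most readily at promoters rich in CpG dinucleotides that are free of DNA methylation. H3K27me3 is written by Polycomb repressive complex 2 and spreads over broad domains at genes that are kept silent, above all developmental regulators of other lineages. Promoters that carry both marks were first described in embryonic stem cells, where they are held to be poised, and a pool of nuclei such as this one cannot show whether both marks sit on the same nucleosome, allele or nucleus.

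The following promoters are single examples of the 4 states, chosen for the strength of their marks. Each sequence runs 5′ to 3′ on the strand of the gene over 300 bases, from 250 before to 50 after the TSS, was read from the NCBI GRCm38 genome and has every CpG in capitals. *Tcp11l2* (chr10:84576376-84576675, plus strand) had the strongest H3K4me3 peak and *Rapgef2* (chr3:79286468-79286767, minus strand) the island with the most reads among bivalent genes, and *Drd1* (chr13:54055656-54055955, minus strand), the D1 dopamine receptor gene, is the bivalent gene whose promoter drives the Cre. *Alg2* (chr4:47474284-47474583, minus strand) and *Gm10800* (chr2:98667252-98667551, minus strand) had the 2 strongest peaks among genes with H3K4me3 only. *Hoxd8* (chr2:74704365-74704664, plus strand) lay in one of the 2 H3K27me3 islands with the most reads, and *Vmn1r137* (chr7:21994337-21994636, plus strand), a vomeronasal receptor, was the gene farthest from any peak or island.
Tcp11l2 promoter, both marks: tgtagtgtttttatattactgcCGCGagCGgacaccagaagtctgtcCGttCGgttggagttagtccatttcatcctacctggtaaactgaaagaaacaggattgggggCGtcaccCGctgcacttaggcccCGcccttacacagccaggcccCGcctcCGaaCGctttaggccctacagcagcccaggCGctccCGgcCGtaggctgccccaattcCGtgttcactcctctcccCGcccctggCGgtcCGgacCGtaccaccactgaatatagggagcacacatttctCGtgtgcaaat
Rapgef2 promoter, both marks: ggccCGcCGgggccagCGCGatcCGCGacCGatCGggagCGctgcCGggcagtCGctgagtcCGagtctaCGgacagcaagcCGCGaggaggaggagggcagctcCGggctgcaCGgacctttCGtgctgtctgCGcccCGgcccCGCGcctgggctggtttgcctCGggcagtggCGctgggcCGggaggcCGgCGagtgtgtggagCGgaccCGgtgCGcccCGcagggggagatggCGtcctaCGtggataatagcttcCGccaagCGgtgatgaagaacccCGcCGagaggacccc
Drd1 promoter, both marks: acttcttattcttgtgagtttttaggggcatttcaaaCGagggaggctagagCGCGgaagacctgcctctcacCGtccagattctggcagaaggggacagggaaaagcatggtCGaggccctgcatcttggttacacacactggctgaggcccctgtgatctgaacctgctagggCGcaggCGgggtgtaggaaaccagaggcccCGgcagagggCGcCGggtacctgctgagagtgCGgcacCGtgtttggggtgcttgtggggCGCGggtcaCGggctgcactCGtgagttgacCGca
Alg2 promoter, H3K4me3 only: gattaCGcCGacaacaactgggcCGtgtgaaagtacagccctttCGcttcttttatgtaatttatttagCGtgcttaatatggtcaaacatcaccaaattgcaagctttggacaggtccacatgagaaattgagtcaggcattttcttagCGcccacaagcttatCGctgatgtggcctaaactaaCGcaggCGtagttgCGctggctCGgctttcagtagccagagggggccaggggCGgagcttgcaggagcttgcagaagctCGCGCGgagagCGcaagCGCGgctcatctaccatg
Gm10800 promoter, H3K4me3 only: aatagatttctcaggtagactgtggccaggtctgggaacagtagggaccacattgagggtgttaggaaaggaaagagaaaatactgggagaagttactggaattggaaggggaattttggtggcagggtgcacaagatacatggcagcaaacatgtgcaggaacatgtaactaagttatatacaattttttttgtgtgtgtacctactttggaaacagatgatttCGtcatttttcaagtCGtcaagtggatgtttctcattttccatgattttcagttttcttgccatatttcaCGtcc
Hoxd8 promoter, H3K27me3 only: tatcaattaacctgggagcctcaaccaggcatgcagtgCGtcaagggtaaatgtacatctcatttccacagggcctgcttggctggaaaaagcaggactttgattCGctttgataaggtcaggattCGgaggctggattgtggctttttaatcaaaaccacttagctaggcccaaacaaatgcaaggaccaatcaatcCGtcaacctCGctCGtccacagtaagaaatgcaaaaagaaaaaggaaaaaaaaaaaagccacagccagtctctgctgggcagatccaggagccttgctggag
Vmn1r137 promoter, neither mark: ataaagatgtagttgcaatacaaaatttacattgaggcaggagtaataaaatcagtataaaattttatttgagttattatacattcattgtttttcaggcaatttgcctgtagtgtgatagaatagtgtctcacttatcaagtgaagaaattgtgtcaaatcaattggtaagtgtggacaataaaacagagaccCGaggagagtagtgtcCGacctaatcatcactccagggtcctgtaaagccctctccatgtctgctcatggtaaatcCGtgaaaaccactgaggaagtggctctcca
The 300 bases hold 20 CpGs at *Tcp11l2*, 37 at *Rapgef2*, 17 at *Drd1*, 18 at *Alg2*, 6 at *Hoxd8* and 3 each at *Gm10800* and *Vmn1r137*. They do not stand for their states, in which the median count was 18 for bivalent genes, 21 for H3K4me3 only, 7 for H3K27me3 only and 2 for neither, with wide spreads (interquartile range of 3 to 15 for H3K27me3 only). *Gm10800* is a predicted gene whose peak, 749 bp wide, stood far above every other promoter peak in the list, with a −log10 q of 4253 where *Alg2*, the next, reached 428. The cause of so extreme a value was not tested, so this peak is not offered as a typical H3K4me3 promoter.

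Across all genes sorted, the ratio of observed to expected CpG in these 300 bases ordered the states. Its median was 0.775 (95% interval 0.769 to 0.781) for H3K4me3 only, 0.674 (0.659 to 0.694) for bivalent genes, 0.354 (0.332 to 0.370) for H3K27me3 only and 0.166 (0.161 to 0.171) for neither, against 0.540 for all genes. Promoters with a ratio of at least 0.6 and a GC content of at least 50% are here called CpG-rich, and 8838 genes (42.5%) had one. They made up 57.6% of bivalent genes (693), 70.1% of genes with H3K4me3 only (7442), 22.0% of those with H3K27me3 only (458) and 3.55% of those with neither (245). Read the other way, 84.2% of CpG-rich promoters had H3K4me3 only and 7.84% were bivalent, while 2.77% had neither mark. Of the promoters with a ratio under 0.2, 81.6% had neither mark and 0.873% were bivalent. The bivalent share was highest at intermediate ratios, at 9.50% between 0.4 and 0.6 and 9.41% between 0.6 and 0.8, and was 5.09% at a ratio of 1 and over. The share with H3K4me3 only kept climbing to 92.8% there. GC content itself set the bivalent genes apart less, with a median of 61.0% beside 60.7% for H3K4me3 only, 53.3% for H3K27me3 only and 47.0% for neither.

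The CpG content also divided the genes with H3K27me3 only. The 458 with a CpG-rich promoter had islands with a median of 7.4 kb, 404.5 reads and 57.6 reads per kb. The 1625 others had islands of 4.0 kb, 167 reads and 41.9 reads per kb. Among bivalent genes the same split gave 5.8 kb and 262 reads against 5.0 kb and 236 reads. The median peak of bivalent genes was 1202 bp wide at CpG-rich promoters and 1028 bp at the others.

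**Figure D1:**
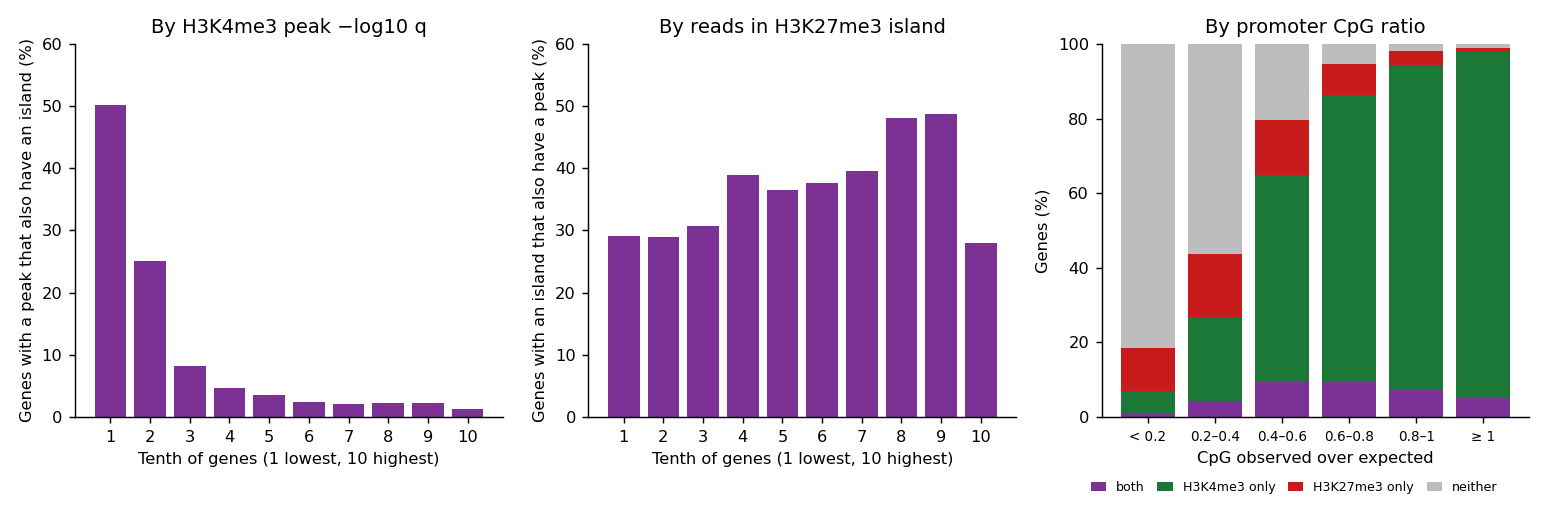
Left, genes with a promoter H3K4me3 peak in 10 equal groups by the −log10 q of their strongest peak, and the percentage that also had an H3K27me3 island (50.2% in the lowest group, 1.35% in the highest). Middle, genes with an island in 10 equal groups by reads, and the percentage that also had a peak (28.0% to 48.8%). Right, percentage of genes in each state (colours) by the observed over expected CpG ratio of the promoter, in which neither falls and H3K4me3 only climbs from left to right.

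The H3K4me3 peaks of bivalent promoters were narrower and weaker in the median than those of promoters with H3K4me3 only. Each gene was given its strongest peak in the window, which was 1132 bp wide in the median of the bivalent genes (95% interval 1099 to 1165, interquartile range 722 to 1531) and 1551 bp wide for H3K4me3 only (1542 to 1562, interquartile range 1235 to 1924). The intervals come from the ranks of the values over genes and say nothing of the spread between mice, which pooled lists do not hold. The ranges overlapped nearly whole, from 234 to 3852 bp and from 236 to 5037 bp. Peaks of 500 bp or less stood at 163 bivalent genes (13.5%) and at 228 genes with H3K4me3 only (2.15%), and peaks of 2 kb or more at 116 (9.63%) and 2297 (21.6%). The median fold enrichment over the local background was 5.74 (5.59 to 5.88) in bivalent genes and 7.71 (7.66 to 7.77) in genes with H3K4me3 only, with highest values of 15.2 and 21.3. The median −log10 q was 21.8 (19.7 to 23.0) against 91.8 (90.9 to 92.9), which placed the typical bivalent peak at percentile 35.3 of the D1 list and the typical peak without H3K27me3 at percentile 74.2. For scale, the 8444 autosomal peaks away from every sorted promoter had a median width of 608 bp and a median −log10 q of 12.9. Bivalent peaks also sat a little farther into the gene. Their summits lay a median of 217 bp downstream of the TSS, against 150 bp for H3K4me3 only. The TSS itself lay under any peak at 71.7% of bivalent genes, against 89.7% of genes with H3K4me3 only.

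At the strong end of the bivalent peaks stood *Tcp11l2* (fold 15.2, −log10 q 312), *Spry1* (10.6 and 226), an inhibitor of growth factor signalling, *Zranb2* (10.4 and 214), which encodes a splicing protein, *Ccdc85a* (9.62 and 197), *Mon1b* (9.72 and 177) and *Epdr1* (8.89 and 168). At *Spry1*, *Ccdc85a*, *Mon1b* and *Epdr1* the island lay beside the peak rather than under it, and it reached only 254, 124, 14 and 927 bp into the window. *Tcp11l2* was different, since its 6.2 kb island (262 reads) covered the whole window and the peak. The widest bivalent peaks were those of *Syt1*, the calcium sensor of synaptic vesicles (3852 bp), *Ptprg*, a receptor tyrosine phosphatase (3608 bp), *Ankrd63* (3440 bp) and *Vcan*, which encodes the matrix proteoglycan versican (3416 bp). Their fold enrichments were only 2.77 to 3.85, and the islands at *Syt1*, *Ankrd63* and *Vcan* were 0.8, 1.2 and 1.6 kb long.

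Among genes with H3K4me3 only, the strongest peaks after *Gm10800* and *Alg2*, a mannosyltransferase of protein glycosylation, belonged to *Sfswap*, a splicing regulator (fold 15.5, −log10 q 369), *Farsb*, a subunit of phenylalanyl-tRNA synthetase (14.9 and 352), *Maip1* (11.3 and 337) and *Rack1*, a scaffold of the ribosome (11.6 and 335). The widest peaks were of another kind. *Lrrtm2* and *Lrrtm3*, which encode synaptic adhesion proteins, had peaks of 5037 and 4862 bp, and *Gsk3b*, a kinase of Wnt and insulin signalling, *Kmt2e* and the translation regulators *Cpeb4* and *Cpeb2* followed at 4513, 4456, 4436 and 4388 bp. Their fold enrichments lay between 2.29 and 2.84, far below the median of 7.71 in this state.

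**Figure D2:**
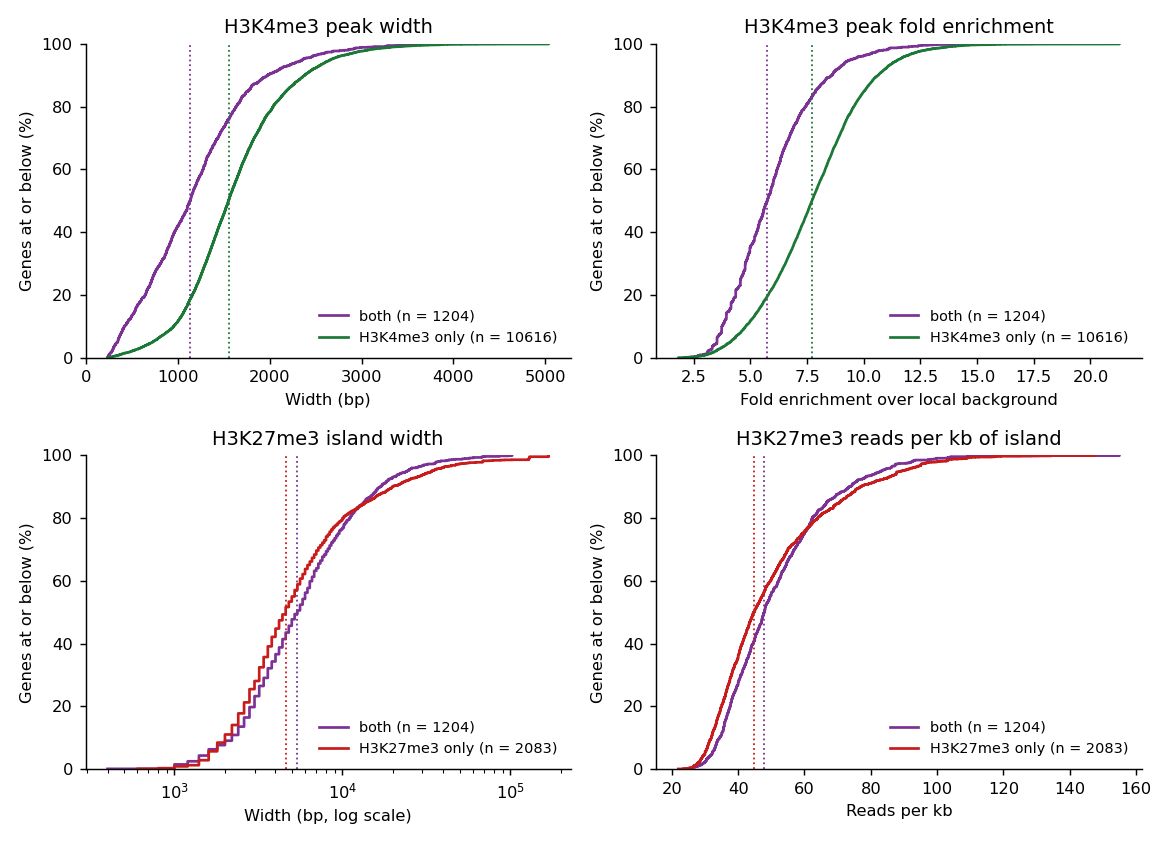
Cumulative percentage of genes at or below each value in D1, for the width (bp) and fold enrichment of the strongest promoter H3K4me3 peak (upper panels, both marks in purple and H3K4me3 only in green) and for the width (bp, log axis) and reads per kb of the promoter H3K27me3 island with the most reads (lower panels, both marks in purple and H3K27me3 only in red). Dotted lines mark the medians, which are 1132 and 1551 bp, 5.74 and 7.71, 5.4 and 4.6 kb, and 47.9 and 44.8 reads per kb; the purple curves lie to the left of the green ones and, except at the wide and dense end, to the right of the red ones.

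The H3K27me3 islands of the 2 marked states differed much less. Each gene was given the island with the most reads in its window. Its median width was 5.4 kb in bivalent genes (95% interval 5.0 to 5.8, interquartile range 3.2 to 9.4) and 4.6 kb in genes with H3K27me3 only (4.4 to 4.8, interquartile range 2.8 to 8.4). The median number of reads was 252 (233 to 271) against 200 (186 to 212), and the density 47.9 reads per kb (47.1 to 48.7) against 44.8 (43.9 to 45.8). At CpG-rich promoters the order was reversed, at 5.8 kb and 48.0 reads per kb in bivalent genes against 7.4 kb and 57.6 with H3K27me3 only. At the other promoters it was kept, at 5.0 kb and 47.9 against 4.0 kb and 41.9. Promoter islands of either state were large for the list, at median percentiles of 87.3 and 81.6 by reads, since the 42293 autosomal islands away from sorted promoters had medians of 3.0 kb and 101 reads. An island covered the whole window at 512 bivalent genes (42.5%) and at 785 with H3K27me3 only (37.7%), yet it held the TSS less often in bivalent genes, at 75.4% against 82.1%. Farther from the TSS the states crossed over. Under an island lay 25.2% of bivalent genes at 10 kb upstream and 22.0% of genes with H3K27me3 only, and at 10 kb downstream 25.5% and 27.9%. The median share of the gene body under islands was 19.6% in bivalent genes and 29.4% in genes with H3K27me3 only, whose genes were also shorter.

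**Figure D3:**
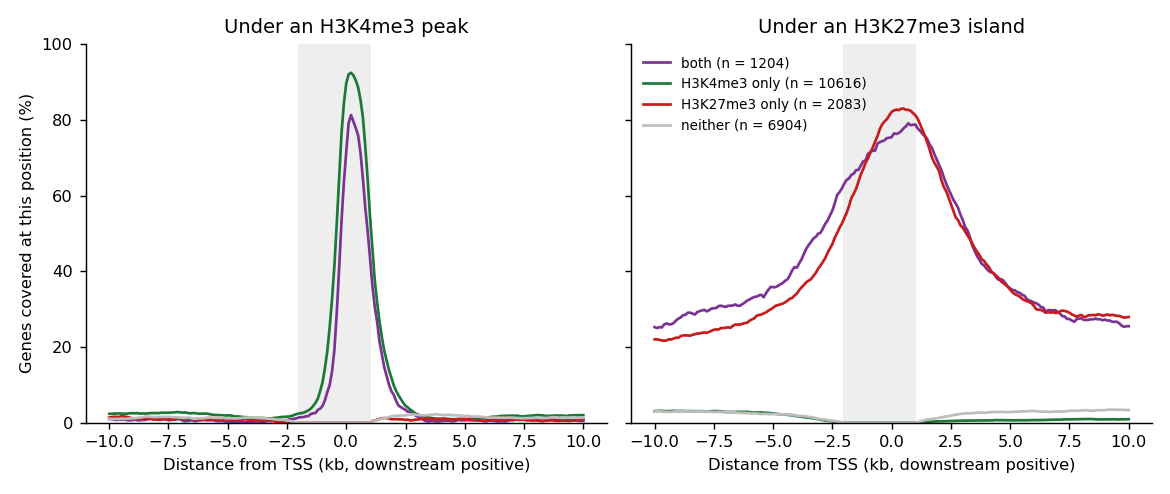
Percentage of the genes of each state whose DNA at a given distance from the TSS (kb, downstream positive) lay under any H3K4me3 peak (left) or any H3K27me3 island (right) of the D1 lists; the grey band is the window used for sorting, so that the levels inside it follow from the sorting. H3K4me3 forms a narrow crest 200 bp downstream of the TSS, at 81.2% of bivalent genes and 92.4% of genes with H3K4me3 only, while H3K27me3 is broad and tops at 79.1% and 83.0%.

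The largest islands of each state name its leading genes. With H3K27me3 only, the 8 islands with the most reads lay at *Hoxc8* (169.4 kb, 11642 reads), *Hoxd8* (129.2 kb, 11330 reads), *Hoxb4* (130.2 kb, 9807 reads), the predicted gene *Gm17359* (102.6 kb, 8349 reads), *Hand2*, a regulator of heart and limb development (69.8 kb, 7592 reads), *Pax3*, a regulator of neural crest and muscle (92.4 kb, 7338 reads), *Zic1*, a regulator of cerebellar and dorsal neural fate (78.8 kb, 7234 reads) and *Hoxa9* (68.4 kb, 7064 reads). Among bivalent genes the leading islands lay at *Rapgef2*, an exchange factor for the GTPase Rap (102.6 kb, 8349 reads), *Efr3a*, a membrane anchor of a lipid kinase (67.2 kb, 7350 reads), *Hoxa7* (68.4 kb, 7064 reads), *Smyd2*, a lysine methyltransferase (98.8 kb, 6827 reads), *Ptprk*, a receptor tyrosine phosphatase (85.0 kb, 6630 reads), *Gng2*, a G protein subunit (70.2 kb, 6555 reads), *Cdkn2a*, the cell cycle inhibitor (51.8 kb, 5166 reads) and *Iqsec3*, an Arf exchange factor of inhibitory synapses (86.4 kb, 4769 reads). The *Rapgef2* and *Gm17359* promoters were marked by the same island, and it reached only 317 bp into the *Rapgef2* window, 334 bp short of a strong H3K4me3 peak (fold 6.79, −log10 q 128). At the other 7 bivalent genes the island covered the window whole and the peak lay within it.

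Bivalent promoters with their marks over the same bases differed in the strength of both marks from those with the marks side by side. Part of this follows from how the classes are defined, since a narrow peak fits within a wide island more readily. In 810 of the 1204 genes (67.3%) the strongest peak lay wholly within the strongest island, in 224 (18.6%) they overlapped in part, in 166 (13.8%) they shared no base, and in 4 (0.332%) the island lay within the peak. Peaks within islands had a median width of 988 bp and a median −log10 q of 15.9, in islands of 6.8 kb and 377 reads. Peaks side by side with an island were 1360 bp wide with a −log10 q of 81.7, close to the median of genes with H3K4me3 only, and their islands were 3.2 kb long with 121.5 reads. Partial overlaps lay between them in −log10 q (41.5), with a peak width of 1446.5 bp and islands of 3.0 kb and 120.5 reads. The gap of the side by side pairs had a median of 882.5 bp (48 to 2051 bp), and the island lay on the upstream side in 143 and on the downstream side in 23 of them. The window reaches farther upstream than downstream, and with 2 kb on both sides the upstream side held 140 of 196 (71.4%).

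The share of genes that also carried H3K27me3 fell steeply with the strength of the H3K4me3 peak. With the genes that had a peak divided into 10 groups of 1182 by −log10 q, 593 (50.2%) of the lowest group (up to 21.25) were bivalent. In the second group it was 25.0%, in the third 8.21%, and in each of the upper 5 groups 1.35 to 2.37%. In the top group 16 genes were bivalent, and the marks shared bases at 5 of them. Ranked by fold enrichment, the share fell from 25.8% to 2.79%, and ranked by width from 32.4% to 5.16%. The reverse did not hold for the islands. Of the genes with an island, the share that also had a peak was 29.2% in the lowest of 10 groups by reads, reached 48.8% in the ninth and was 28.0% in the top group, where the Hox clusters and other long domains lie. By island width it was 34.3% under 2 kb, 47.0% from 10 to 20 kb and 29.0% (85 of 293) at 20 kb and over. Within bivalent genes the median −log10 q of the peak was 32.1 at islands under 2 kb and 17.5 at islands of 20 kb and over.

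The marker genes show how the states fall on striatal identity. Of 14 markers shared by both classes of striatal projection neuron, 12 had H3K4me3 only, against 51.0% of all genes, and none had an island. They include *Ppp1r1b*, which encodes DARPP-32 (peak of 3086 bp, fold 4.72), *Rgs9* (2582 bp, 3.48), *Foxp1* (2346 bp, 3.01), *Pde10a* (1894 bp, 5.04) and *Bcl11b*, which encodes CTIP2 (1312 bp, 2.74). Their median peak was 1920 bp wide with a fold of 3.64, so it was wider and lower than the median of its state. *Arpp21* and *Rarb* had neither mark in the window, and the nearest peak stopped 8 bp short of the *Arpp21* window. None of the 16 striatal interneuron markers had a peak, and 13 lay in an island with H3K27me3 only, against 10.0% of all genes. Their islands were broad, with a median of 13.6 kb and a range of 2.0 to 49.8 kb. The widest were those of *Nkx2-1* (49.8 kb, 4981 reads), *Sst*, encoding somatostatin (43.2 kb, 3034 reads), and *Lhx6* (38.2 kb, 2805 reads). *Chat*, the acetylcholine enzyme of cholinergic interneurons (13.6 kb), *Npy* (13.0 kb), *Pvalb*, encoding parvalbumin (6.8 kb), and *Calb2*, encoding calretinin (3.4 kb), had narrower ones. *Cort*, *Nos1* and *Th* had neither mark in the window. With any annotated transcript start counted, *Th* had H3K27me3 only.

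Of 9 direct pathway markers, 8 were bivalent, against 5.79% of all genes, and the exception was the muscarinic receptor gene *Chrm4*, which had neither mark, with a peak 1023 bp outside its window. The peaks of the 8 had a median width of 1595 bp, a median fold of 3.97 and a median −log10 q of 42.5, and their islands were small, with a median of 2.9 kb and 110 reads. The smallest was at *Pdyn*, which encodes prodynorphin (1.0 kb, 50 reads), followed by those at the transcription factor gene *Ebf1* (1.4 kb, 61 reads), *Drd1* (1.8 kb, 86 reads), *Tac1*, which encodes substance P (2.8 kb, 121 reads), *Sfxn1* (3.0 kb, 99 reads), *Slc35d3* (4.6 kb, 154 reads) and *Isl1*, a regulator of direct pathway fate (5.8 kb, 229 reads). *Eya1* had the largest, at 10.4 kb and 544 reads. Only at *Eya1* and *Isl1* did the peak lie within the island. At *Drd1* the peak of 2484 bp (fold 3.27) began downstream of the TSS and ran into the gene, and its overlap with the island was partial. At *Ebf1* and *Sfxn1* the strongest peak and the island shared no base and lay 962 and 727 bp apart. A weaker peak in the *Ebf1* window, nearer to the island, held the TSS. With islands of at least 2000 bp required, *Drd1*, *Ebf1* and *Pdyn* left the bivalent state and 5 of the 9 markers remained in it.

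Of the 7 indirect pathway markers sorted, 5 were bivalent as well, so the state itself did not part the 2 pathways, but their islands were larger. At *Adora2a*, the adenosine A2a receptor gene, the island measured 45.0 kb with 4153 reads, at the opioid gene *Penk* 23.8 kb with 1365 reads, at the receptor gene *Gpr6* 21.8 kb with 1265 reads, at *Sp9*, a transcription factor of indirect pathway development, 21.2 kb with 1577 reads and at *Drd2*, the D2 receptor gene, 7.8 kb with 559 reads. All 5 islands covered the window whole and held the peak within them. *Upb1* lay in an island of 22.4 kb (1249 reads) and had no peak, and *Plxdc1* had a peak (fold 6.56) and no island. With any annotated transcript start counted, *Upb1* was bivalent as well. The median over the 6 islands was 22.1 kb and 1315 reads, against 2.9 kb and 110 reads at the direct pathway genes, and the ranges of width, 7.8 to 45.0 kb and 1.0 to 10.4 kb, overlapped only through *Drd2* and *Eya1*. The H3K4me3 peaks were 1086 to 3375 bp wide, with a median fold of 3.86, against 1230 to 3282 bp and 3.97 at the direct pathway genes. These are 2 short lists within pooled libraries, and the difference was not tested.

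**Figure D4:**
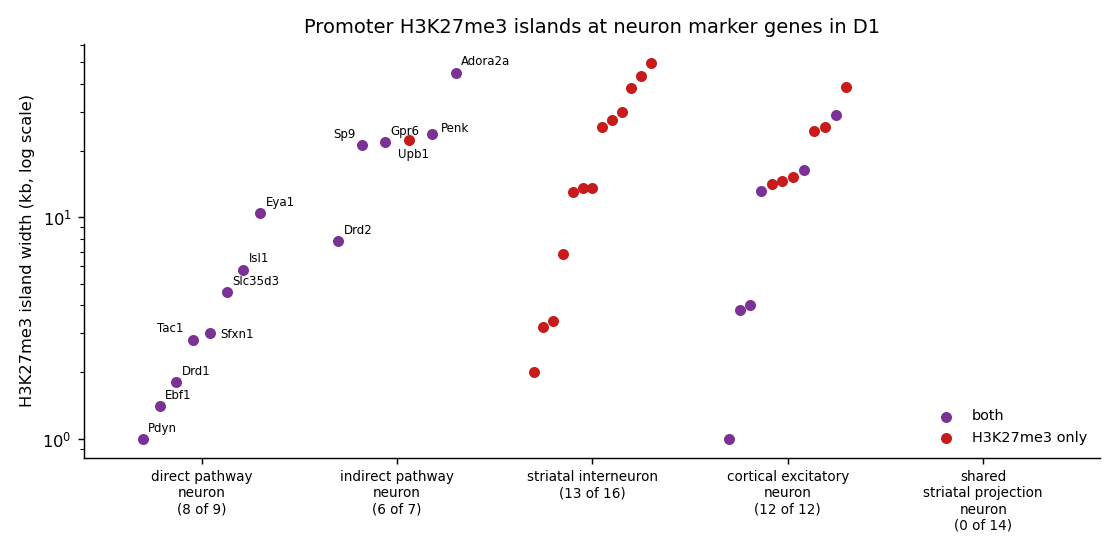
Width of the promoter H3K27me3 island (kb, log axis) in D1 at each marker gene that had one, ordered by width within each list, with the number of genes with an island of those sorted under each list name; purple points also had an H3K4me3 peak and red points did not. Islands at direct pathway genes run from 1.0 to 10.4 kb, those at indirect pathway genes from 7.8 to 45.0 kb, and none of the 14 markers shared by projection neurons has one.

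Markers of cells that the purification should leave behind were also read. All 12 cortical excitatory neuron markers had an island in the window, with a median of 14.9 kb, and at 10 the TSS lay inside one. Of the 12, 6 were also marked by a peak, namely *Cux2*, *Neurod6*, *Emx1*, *Slc17a7*, *Rorb* and *Emx2*, and these peaks were weak, with a median −log10 q of 11.5 and a width of 746 bp. Of 12 oligodendrocyte markers 4 were bivalent (*Ermn*, *Ugt8a*, *Olig1* and *Olig2*), 3 had H3K4me3 only (*Mag*, *Cnp* and *Myrf*) and 3 H3K27me3 only (*Cldn11*, *Mobp* and *Sox10*), with a median −log10 q of 6.60 over the 7 peaks. *Olig2*, the lineage regulator, had an island of 31.8 kb and a peak of 288 bp with a −log10 q of 3.11. Of 10 astrocyte markers 4 were bivalent (*Fgfr3*, *Gja1*, *Sox9* and *Slc1a3*), and *Slc1a2* and *Aldoc* had H3K4me3 only, with a median −log10 q of 9.32 over the 6 peaks. *Gja1*, the astrocytic connexin gene, had a 20.6 kb island over a peak with a −log10 q of 4.18. Among 11 microglia markers 2 had a peak, and among 8 endothelial markers *Kdr* did. Of the 53 markers of these 5 cell classes, 22 had a peak (41.5%, against 56.8% of all genes), 33 an island (62.3%, against 15.8%) and 16 both (30.2%, against 5.79%), and whether nuclei of these cells in the preparation gave part of the bivalent promoters was not tested.

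Families of developmental regulators were marked by H3K27me3 islands in whole or in large part. All 39 Hox genes, which pattern the body axis behind the forebrain, had an island in the window, and at 37 the TSS lay inside one. H3K27me3 only was found at 38 Hox genes, *Hoxa7* being bivalent through a peak of 363 bp. Just 4 islands held most of them, with 11 sorted genes from *Evx2* to *Hoxd1* under 129.2 kb, 10 from *Gm28308* to *Hoxa13* under 68.4 kb, 9 of the Hoxc cluster under 169.4 kb and 9 of the Hoxb cluster under 130.2 kb, so these genes are not separate observations. All 9 Pax genes (median island 36.8 kb) and all 5 Gata genes (23.6 kb), which specify other organs and cell lineages, had H3K27me3 only. So did 13 of 15 T-box genes (18.2 kb), *Tbx6* and *Tbx10* having neither mark, 11 of 12 Lhx and Lmx genes (21.1 kb), with the direct pathway regulator *Isl1* bivalent, 11 of 14 Nkx genes, with *Nkx6-2* among the 2 bivalent ones and *Nkx6-3* unmarked, and 5 of 6 Iroquois genes, with *Irx5* bivalent.

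Other families were split among the states. Of 6 Dlx genes, which drive the development of forebrain inhibitory neurons, *Dlx2*, *Dlx5* and *Dlx6* were bivalent and *Dlx1*, *Dlx3* and *Dlx4* had H3K27me3 only. *Dlx5* had a peak of 2850 bp with a −log10 q of 99.5 that overlapped in part an island of 2.8 kb, while *Dlx1* and *Dlx2* lay under the same island of 25.0 kb and 1680 reads. Of 41 Fox genes, 15 had H3K4me3 only (36.6%, against 51.0% of all genes), among them *Foxp1* and *Foxp2*. H3K27me3 only was found at 21 (51.2%, against 10.0%). *Foxn3* was bivalent, and *Foxs1*, *Foxj3*, *Foxr1* and *Foxn1* had neither mark. Of 18 Sox genes, 7 had H3K4me3 only, 5 were bivalent (*Sox2*, *Sox5*, *Sox6*, *Sox9* and *Sox21*), 5 had H3K27me3 only (*Sox7*, *Sox10*, *Sox14*, *Sox17* and *Sox18*) and *Sox15* had neither. *Sox2*, the neural stem cell factor, had a peak of 2867 bp within an island of 36.2 kb. Of 10 genes of the sine oculis and eyes absent families, *Eya1*, *Eya4*, *Six3* and *Six4* were bivalent, 4 had H3K27me3 only, among them *Eya2* and *Six6*, and *Eya3* and *Six5* had H3K4me3 only. Secreted ligands of development were more mixed. H3K27me3 only was found at 10 of 19 Wnt, 7 of 20 Fgf and 6 of 19 Bmp and Gdf genes (52.6%, 35% and 31.6%, against 10.0% of all genes). Another 4, 3 and 5 genes of these families were bivalent (21.1%, 15% and 26.3%, against 5.79%). Their median islands, 7.2, 4.9 and 6.8 kb, were short beside those of the transcription factors.

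**Figure D5:**
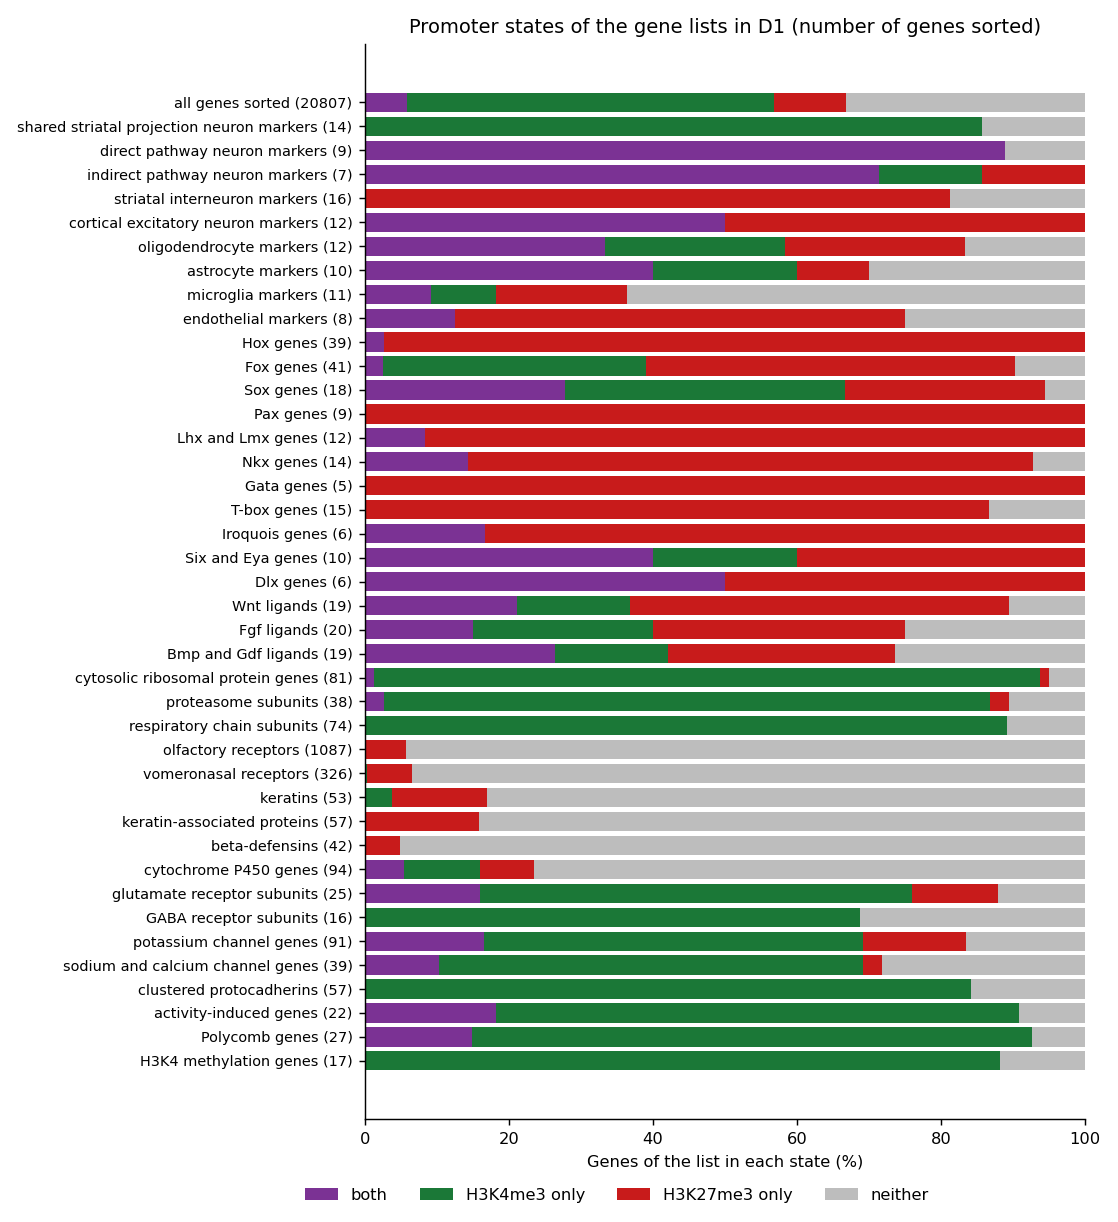
Percentage of the genes of each list in each of the 4 promoter states in D1 (colours), with the number of genes sorted in brackets and all 20807 genes in the top bar (5.79% bivalent, 51.0% H3K4me3 only, 10.0% H3K27me3 only, 33.2% neither). Hox, Pax and Gata genes are almost wholly red, ribosomal, proteasome and respiratory chain genes mostly green, and receptor, keratin and defensin clusters mostly grey.

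Genes that every cell uses stood almost entirely in the state with H3K4me3 only. It held 75 of 81 cytosolic ribosomal protein genes, 32 of 38 proteasome subunits and 66 of 74 respiratory chain subunits, with median fold enrichments of 9.18, 9.67 and 8.63, above the median of the state. The exceptions with H3K27me3 were few. *Rps29* was bivalent through an island of 0.4 kb with 62 reads inside a strong peak, and *Psmb8*, a subunit of the immunoproteasome, through an island of 4.2 kb over a peak of 244 bp. *Rpl17* and *Psmd5* had an island of 3.8 and 2.2 kb and no peak. Several of the unmarked genes, such as *Rpl10l*, *Rpl3l*, *Psma8*, *Cox6b2* and *Cox8c*, are tissue-restricted paralogs of the common subunit.

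Glutamate and GABA receptor and ion channel genes had wide H3K4me3 peaks of moderate fold, with list medians of 1795 to 2342 bp and 4.24 to 5.12. Of 25 glutamate receptor subunits 15 had H3K4me3 only (60%, near the 51.0% of all genes), among them *Grin1* (1681 bp), *Gria2* (3791 bp), *Grin2b* (2615 bp) and *Gria1* (1105 bp). *Grin3a*, *Grik1*, *Grik3* and *Grm8* were bivalent, *Grin2c*, *Grin3b* and *Grm6* had H3K27me3 only, and *Grin2d*, *Grm2* and *Grm4* had neither mark. *Grin2c*, the NMDA receptor subunit best known from the cerebellum, lay in an island of 11.0 kb. Of 16 GABA receptor subunits 11 had H3K4me3 only (68.8%, against 51.0% of all genes). None had an island, against 15.8% of all genes. The 5 with neither mark include *Gabra6*, the cerebellar subunit, and *Gabrr1* to *Gabrr3*. Of 91 potassium channel genes 15 were bivalent (16.5%, against 5.79% of all genes), including *Kcnj10*, the inward rectifier of glia, and *Kcnj6*, a G protein gated channel, and 48 had H3K4me3 only (52.7%, again near the 51.0%). Of 39 sodium and calcium channel genes 23 had H3K4me3 only (59.0%, near the 51.0%). *Scn1a*, *Cacna1e*, *Cacna1g* and *Cacng5* were bivalent (10.3%, against 5.79%). The 57 clustered protocadherins, which give neurons their surface identity, had 48 promoters with H3K4me3 only (84.2%, against 51.0%) and no island. Their peaks were narrow (median 616 bp).

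Of 22 activity-induced genes, 16 (72.7%, against 51.0% of all genes) had H3K4me3 only, among them *Fos*, *Egr1*, *Junb* and *Npas4*. Another 4 (18.2%, against 5.79%) were bivalent. *Nr4a2*, a nuclear receptor gene, and *Bdnf*, the neurotrophin gene, lay in islands of 43.2 and 30.6 kb, *Ier2* in one of 12.6 kb and *Cartpt*, a neuropeptide gene, in one of 3.4 kb, and at all 4 the peak lay within the island. *Egr2* and *Homer1* had neither mark in the window. The machinery of both marks was read as well. Of 27 Polycomb genes 21 (77.8%, against 51.0% of all genes) had H3K4me3 only, and 4 (14.8%, against 5.79%) were bivalent. The bivalent ones include *Cbx2*, *Cbx8* and *Pcgf1*, subunits of Polycomb repressive complex 1. Their peaks were strong (−log10 q of 75.9 to 156) and lay beside the island or overlapped it in part. Of 17 genes of H3K4 methylation 15 (88.2%, against 51.0%) had H3K4me3 only and none had an island, with *Ash2l* and *Dpy30* unmarked in the window.

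Most members of tandem receptor and barrier gene families had neither mark. Neither mark was found at 1025 of 1087 olfactory receptors, 305 of 326 vomeronasal receptors, 44 of 53 keratins, 48 of 57 keratin-associated proteins, 40 of 42 beta-defensins and 72 of 94 cytochrome P450 genes, which together were 1534 (22.2%) of the 6904 unmarked genes. None of the 1087 olfactory receptors had a promoter peak, and 62 (5.70%) had an island in the window, against 15.8% of all genes. At 39 of the 62 the TSS lay inside an island. The islands at the 62 genes were small, with a median of 3.0 kb and 35.7 reads per kb. Of the vomeronasal receptors *Vmn1r4* had H3K4me3 only, and of the keratins *Krt222* and *Krt9* did. The 4 genes farthest from any peak or island, *Vmn1r137*, *Vmn1r138*, *Gm6176* and *Vmn1r139*, lie together on chromosome 7. At *Vmn1r137* the nearest island was 2052 kb and the nearest peak 2059 kb away. The typical unmarked promoter was not that remote, with medians of 80.1 kb to an island and 58.1 kb to a peak. Promoters with H3K4me3 only lay a median of 68.9 kb from an island, and those with H3K27me3 only 45.3 kb from a peak. Gene length followed the states too. The median gene was 44.9 kb long if bivalent, 24.5 kb with H3K4me3 only, 15.7 kb with H3K27me3 only and 9.05 kb with neither, against 17.6 kb for all genes, and a longer gene has no longer window.

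Neighbouring genes tended to share their state. The next sorted gene along the chromosome was also bivalent for 15.8% of bivalent genes, against 5.79% in general, and had the same state for 25.3% of genes with H3K27me3 only (10.0% in general), 58.2% of genes with neither (33.2%) and 66.2% of genes with H3K4me3 only (51.0%). Neighbours can share a peak or island, so the 1204 bivalent genes rest on 1168 peaks and 1169 islands. The longest runs were of 11 genes with H3K27me3 only (*Ttll6* to *Hoxb1*, and *Evx2* to *Hoxd1*), 106 genes with neither (*Igsf23* to *Vmn1r183*) and 24 with H3K4me3 only (*Pcx* to *Rin1*), while no more than 4 bivalent genes followed one another, as at *Tes* to *Met*. Over the 19 autosomes the bivalent share ran from 2.47% on chromosome 7 to 11.3% on chromosome 3.

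The sorting has a sharp edge at 1 bp. Just inside it were *Tap2* and *Lrrn4*, whose peaks reached 4 bp into the window, and *Kcnk16* and *Scara5*, whose islands reached 2 and 3 bp into it. Just outside were *Angptl6* and *Arpp21*, with peaks 6 and 8 bp away, and *Plin5* and *Naalad2*, with islands 4 and 5 bp away.

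Set beside the lists from A2a nuclei (indirect pathway neurons, Sun1-sfGFP;A2a-cre), 1127 of the 1204 D1 bivalent genes (93.6%) were bivalent there too, as were 550 genes with H3K4me3 only and 303 with H3K27me3 only in D1. They make up 55.1% of the 2047 A2a bivalent genes, which are 9.84% of all genes sorted. The indirect pathway markers *Adora2a* and *Gpr6* were bivalent in D1 and had H3K4me3 only in A2a. The direct pathway marker *Sfxn1* did the same, while *Ebf1*, bivalent in D1, had H3K27me3 only in A2a. The other pathway markers bivalent in D1 were bivalent in A2a too, namely *Eya1*, *Pdyn*, *Tac1*, *Slc35d3*, *Drd1*, *Isl1*, *Sp9*, *Penk* and *Drd2*. The A2a lists hold more islands and are not normalized to those of D1, so no test was made.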

How the data were processed

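H3K4me3 and H3K27me3 were profiled by CnR in INTACT-isolated D1 nuclei, with 2 replicates per mark. The authors mapped the reads to mm10 with bowtie2 (version 2.1.0), required a mapping quality of 20 or more with SAMtools (version 0.1.19), removed duplicates and kept inserts between 150 and 500 bp. Peaks of H3K4me3 were called with MACS2 at q 0.01, and the deposited values are the fold enrichment over local background and the −log10 q-value. Islands of H3K27me3 were called with SICER (windows of 200 bp, gaps of 600 bp, false discovery rate 0.01) against a control library that is not named in the sources used here, and the deposited value is the count of reads in the island, which the authors did not scale for depth. Library depth cannot be read from the lists, and the other antibodies and controls were not analysed here.

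Genes came from the GENCODE vM21 annotation and sequences from the NCBI GRCm38 genome, with coordinates counted from 1. The TSS was the annotated 5′ end. A gene took its peak of the highest −log10 q and its island of the most reads. Since each list pools its replicates, no test was made, and the 95% intervals of medians, from binomial ranks over genes, cover neither the spread between mice nor the dependence of neighbouring genes. Named genes were, per state, those with the most island reads, the highest −log10 q, the widest peaks or the greatest distance from any peak or island, those just inside and outside the 1 bp overlap, the direct and indirect pathway markers, and list members in counts of 5 or fewer. Other list members named as examples were chosen after their values were seen. The 40 gene lists and the members were chosen with earlier results of these data known. A few list members and 1 promoter sequence that the rule would name are not reported here. *Gpr52*, an indirect pathway marker, was not among the genes sorted. Alternatives changed the window, the TSS, the overlap, the thresholds, island merging, the choice of peak and the gene set. Sorting, choice of peaks and intervals were tested on simulated data. The scripts ran in Python (version 3.11.15) with scipy (version 1.17.1), pandas (version 2.3.3), matplotlib (version 3.10.9) and numpy (version 2.4.6).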

Additional observations from a re-analysis of the deposited data

How the results depend on the processing

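The 10 results on the states were recomputed under alternatives set at the outset, which gave 64 values. Of these, 60 stayed within the limits set, and no comparison of medians between states turned its direction. The limit for counts was wide. It let pass 1587 bivalent genes, with any annotated transcript start counted, in place of 1204. Bivalent genes numbered 1097 to 1587, genes with H3K4me3 only 10532 to 11008, with H3K27me3 only 1909 to 2227 and with neither 6052 to 7577. With a window of 1 kb on both sides, the ratio of median peak widths, bivalent over H3K4me3 only, was 0.702 in place of 0.730, and the share of bivalent genes whose peak and island share bases was 94.2% in place of 86.2%. That share was 88.2% with an overlap of at least 200 bp. The median CpG ratio of bivalent genes exceeded that of all genes of the other 3 states pooled, among which H3K4me3 only was higher, by 0.151 in the 300 bases and by 0.124 over the whole 3 kb window. Recomputations added after seeing the data gave 25 further values, of which 2 moved. The upstream share of side by side islands was 86.1%, and 71.4% with 2 kb on both sides of the TSS. The bivalent direct pathway markers numbered 8, and 5 with islands of at least 2000 bp. The cause was not tested, beyond what a narrower or wider window sets by its construction. No paired analysis was possible because each deposited list pools its replicates. Depth limits the lists, since a promoter counted as unmarked can hold signal below the calling threshold, and SICER islands, called in steps of 200 bp, have no finer edges.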

Other observations

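The secreted ligands of development and the P450 enzymes were divided among the states. Of the Wnt ligands, *Wnt6*, *Wnt16*, *Wnt5b* and *Wnt9a* were bivalent, *Wnt2*, *Wnt4* and *Wnt7a* had H3K4me3 only, *Wnt8a* and *Wnt10a* had neither mark, and the other 10, among them *Wnt1* and *Wnt3a*, had H3K27me3 only. *Wnt16* had a peak of 458 bp within an island of 9.4 kb. Of the Fgf ligands, *Fgf2*, *Fgf3* and *Fgf5* were bivalent, and *Fgf11*, *Fgf12*, *Fgf14*, *Fgf18* and *Fgf20* had H3K4me3 only. *Fgf11*, *Fgf12* and *Fgf14* belong to the intracellular branch of the family, which binds sodium channels. The morphogens *Fgf8*, *Fgf10* and *Fgf15* were among the 7 with H3K27me3 only. Of the Bmp and Gdf ligands, *Bmp3*, *Bmp7*, *Gdf7*, *Gdf10* and *Gdf11* were bivalent. *Bmp7* had a peak of 1709 bp within an island of 11.8 kb, and at *Gdf11* a peak of 712 bp lay beside an island of 4.8 kb.

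Of 94 cytochrome P450 genes, 10 (10.6%, against 51.0% of all genes) had H3K4me3 only. They include *Cyp46a1*, the neuronal cholesterol hydroxylase, and *Cyp7b1*, an oxysterol hydroxylase. *Cyp1b1*, *Cyp26a1*, *Cyp27a1*, *Cyp2j9* and *Cyp4v3* were bivalent (5.32%, near the 5.79% of all genes). A further 7 had H3K27me3 only (7.45%, against 10.0%), among them *Cyp26b1*, which like *Cyp26a1* degrades retinoic acid. The remaining 72 had neither mark, against 33.2% of all genes.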
